A study of Mus musculus with 2 samples.

Results

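Open chromatin at divergent gene pairs was examined in mouse spleen, that is, at pairs of protein-coding genes that lie head to head on opposite strands and are transcribed away from each other. A pair was counted where the start sites of its genes, taken as the 5′ ends in the basic GENCODE annotation of the mouse assembly mm10, lay at most 1000 bases apart. The annotation held 754 such pairs, made up of 1487 of 21938 protein-coding genes, or 6.78%, and 21 genes stood in 2 pairs. Peaks were assigned to a pair where they overlapped the stretch that runs from 500 bases beyond one start site to 500 bases beyond the other. Of 42454 peaks in replicate 1 these were 1005, or 2.37%, and of 60683 peaks in replicate 2 they were 1051, or 1.73%, a mean of 1028 ± 32.5 (SD, n = 2).

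The peaks came from DNase-seq, in which nuclear DNA is cut with the nuclease DNase I and the cut sites, which crowd where chromatin is open, are sequenced. The samples were spleen tissue of B6CASTF1/J females at 36 days of age, an F1 cross between C57BL/6 and CAST mice, with no treatment given in the labels. They form 1 group of 2 biological replicates with 1 library each, labelled as separate females but tied to the same donor entry, so the spread between the libraries may be partly technical. With 1 group there is no comparison between conditions. With 2 libraries, the smallest two-sided p that an exact sign-flip test of a difference seen in both could give is 0.5, so differences are given with both values and no test.

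At a divergent pair the 2 genes share the DNA between their start sites, and 1 nucleosome-free region can serve initiation in both directions. Such pairs are frequent in mammalian genomes, often lie in CpG islands, and are enriched for genes of DNA repair, mitochondria and other functions that most cells use. The factors known at such promoters include NRF1, the ETS factor GABP, NF-Y and the SP family, which bind short motifs near the start sites, while TATA boxes are less frequent there.

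The start sites lay close together, at a median distance of 129.5 bases and a range of 1 to 987 bases, and 618 pairs, or 82.0%, had at most 300 bases between them. The ratio of observed to expected CpG dinucleotides in the stretch had a median of 0.761, and 635 pairs were CpG-rich, with a ratio of at least 0.6, while 119 were CpG-poor. The spleen origin of the libraries was checked with marker genes. In each library 8 of 8 genes of B cells had a peak within 1000 bases of their start site. So did 4 and 5 of 6 T cell genes, against 0 and 0 of 5 hepatocyte genes and 0 and 1 of 4 genes of pancreatic acinar cells. Total read depth was unknown, since the deposited lists give no counts. The signal of a peak is the authors' value and was used within a library only, as its percentile among all peaks of that library, with 100 for the strongest.

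The sequences that separate the start sites are shown here for pairs with some of the strongest peaks, for pairs known from textbooks and for 2 pairs without a peak, so that the bases behind the values can be read. Each is the longest run between the start sites that lies outside every annotated exon of GENCODE and RefSeq, given 5′ to 3′ on the plus strand of GRCm38.p6, the assembly also called mm10. It is the C57BL/6 reference, from which the CAST allele of these hybrid mice may differ. Capitals mark bases that lay inside a deposited footprint, a short stretch protected from DNase I cutting, in both libraries.
Rita1/Ddx54, chr5:120612590-120612738: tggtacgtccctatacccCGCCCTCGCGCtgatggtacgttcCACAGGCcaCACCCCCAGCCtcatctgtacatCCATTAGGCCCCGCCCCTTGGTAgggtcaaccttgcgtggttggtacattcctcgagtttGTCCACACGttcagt
BC005624/Usp20, chr2:30982202-30982278: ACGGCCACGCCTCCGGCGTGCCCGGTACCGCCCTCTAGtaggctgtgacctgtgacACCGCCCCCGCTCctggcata
Tecr/Dnajb1, chr8:83607972-83608174: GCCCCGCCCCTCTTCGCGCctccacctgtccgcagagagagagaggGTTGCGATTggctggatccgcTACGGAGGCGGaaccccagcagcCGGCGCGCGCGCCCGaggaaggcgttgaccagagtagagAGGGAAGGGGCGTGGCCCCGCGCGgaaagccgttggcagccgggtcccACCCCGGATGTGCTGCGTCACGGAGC
Pdhx/Apip, chr2:103073514-103073674: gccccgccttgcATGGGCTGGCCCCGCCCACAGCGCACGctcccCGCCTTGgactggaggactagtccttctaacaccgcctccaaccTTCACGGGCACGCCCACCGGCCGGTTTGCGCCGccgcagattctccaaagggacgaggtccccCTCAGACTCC
Nfya/Oard1, chr17:48409907-48409956: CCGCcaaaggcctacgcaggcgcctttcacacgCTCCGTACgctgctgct
Aamp/Pnkd, chr1:74284739-74284929: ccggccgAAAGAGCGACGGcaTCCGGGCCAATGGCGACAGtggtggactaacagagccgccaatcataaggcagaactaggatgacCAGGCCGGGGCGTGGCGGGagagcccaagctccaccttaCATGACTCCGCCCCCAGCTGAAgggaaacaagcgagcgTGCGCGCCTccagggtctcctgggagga
Brca1/Nbr1, chr11:101551956-101552106: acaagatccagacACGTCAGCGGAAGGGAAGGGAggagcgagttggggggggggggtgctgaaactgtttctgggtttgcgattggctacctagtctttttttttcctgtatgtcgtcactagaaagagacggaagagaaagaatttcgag
Wrap53/Trp53, chr11:69580256-69580347: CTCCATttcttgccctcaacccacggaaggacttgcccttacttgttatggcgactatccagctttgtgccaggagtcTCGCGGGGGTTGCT
Mrps12/Sars2, chr7:28741822-28741956: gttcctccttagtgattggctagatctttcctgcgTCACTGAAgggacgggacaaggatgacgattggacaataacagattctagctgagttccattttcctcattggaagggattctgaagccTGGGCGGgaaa
Sgce/Peg10, chr6:4747208-4747305: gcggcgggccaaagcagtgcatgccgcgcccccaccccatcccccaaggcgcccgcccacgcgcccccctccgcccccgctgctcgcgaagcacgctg
Hist1h2bq/Hist1h2ao, chr13:21810200-21810366: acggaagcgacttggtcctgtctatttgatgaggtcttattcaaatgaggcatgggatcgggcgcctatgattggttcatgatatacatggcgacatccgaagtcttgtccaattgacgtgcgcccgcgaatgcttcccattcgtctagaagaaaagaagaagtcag

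The strongest peaks of Rita1/Ddx54 and Brca1/Nbr1 lay outside these gaps, and those of the other open pairs printed overlapped them. In the gap of Rita1/Ddx54, 61 of 149 bases lay in footprints of both libraries, and these bases include the letters CCCCGCCCC, the reverse complement of the SP and KLF motif GGGGCGGGG. Ddx54 encodes a DEAD-box RNA helicase and Rita1 a regulator of Notch signalling. The same letters, CCCCGCCCC, stood in a footprint of both libraries between Tecr, an enzyme of fatty acid elongation, and Dnajb1, a heat shock co-chaperone. Between Mrps12 and Sars2 a match to the NF-Y motif, CTCATTGG, had 0 of its 8 bases in footprints of both libraries. No base of the printed runs of Sgce/Peg10 and Hist1h2bq/Hist1h2ao lay in a footprint of both libraries, although 11 bases between Sgce and Peg10 did in replicate 2.

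Most divergent pairs were open in spleen. At least 1 peak was found at 698 of 754 pairs in replicate 1, or 92.6% (95% Wilson interval 90.5 to 94.2), and at 705 in replicate 2, or 93.5% (91.5 to 95.1), with a mean of 93.0% ± 0.66 (SD, n = 2). For comparison, of all 21938 coding start sites 48.7% in replicate 1 and 52.0% in replicate 2 had a peak within 500 bases. The libraries differed at 7 pairs. All 698 pairs open in replicate 1 were open in replicate 2, a further 7 were open in replicate 2 alone, and 49 were open in neither. Intervals cover counting error over pairs only.

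The peaks were strong for their libraries. Their median signal was 5.64 in replicate 1 and 6.77 in replicate 2, against 1.39 and 1.14 over all peaks, and their median percentile was 87.3 and 89.98. Of the peaks at pairs, 41.6% and 49.9% stood in the strongest 10% of their library, and 36 and 70 peaks stood in the strongest 1%. The strongest peak of an open pair had a median percentile of 91.4 in replicate 1 and 93.9 in replicate 2, a mean of 92.7 ± 1.76 (SD, n = 2). Only 13 and 15 open pairs had a strongest peak below the median of their library. Peaks at pairs recurred between libraries in 95.4% (94.0 to 96.6) of cases for replicate 1 and 91.3% (89.4 to 92.8) for replicate 2, where all peaks did so in 93.8% and 65.7%.

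The pair with the highest mean percentile was Rita1/Ddx54 on chromosome 5, with start sites at 120612589 and 120612739, whose strongest peak had a signal of 18.7 in replicate 1 and 29.8 in replicate 2. Those values stood at percentiles 99.93 and 99.96, and the midpoint of that peak lay downstream of the start site of Ddx54 in both libraries. Hjurp/Trpm8, also among the 10 strongest, had signals of 18.8 and 26.3. Hjurp encodes the chaperone that deposits the centromeric histone CENP-A, and Trpm8 an ion channel known for cold sensing in sensory neurons, so a gene with a neuronal role shares this strong spleen peak with a gene of dividing cells. Its start sites lie 28 bases apart, at 88277633 and 88277661 on chromosome 1. Others among the 10 strongest were BC005624/Usp20, Tecr/Dnajb1, Zfp654/Cggbp1, Pdhx/Apip, Fam53a/Gm9903, Nfya/Oard1 and Aamp/Pnkd, with signals of 15.1 to 18.1 in replicate 1 and 23.2 to 30.2 in replicate 2. The lowest percentile among the 10 was 99.57, of Aamp/Pnkd in replicate 1. Nfya encodes a subunit of NF-Y, which binds the CCAAT box, and Pdhx a component of the pyruvate dehydrogenase complex.

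Of 11 pairs known from textbooks 10 were open, a share near that of all pairs, 92.6% and 93.5%. Atm, the kinase of the response to DNA double-strand breaks, and Npat, a coactivator of histone genes, have start sites at 53536740 and 53537047 on chromosome 9, and their strongest peak had a signal of 13.0 in replicate 1 and 24.8 in replicate 2, at percentiles 98.9 and 99.8. Mcm4, a subunit of the replicative helicase, and Prkdc, the catalytic subunit of the DNA-dependent protein kinase, lie 466 bases apart on chromosome 16 and had signals of 11.8 and 17.8, at percentiles 98.2 and 98.7. Brca1/Nbr1, which joins a gene of homologous recombination to one of selective autophagy, reached percentiles 95.7 and 99.1. Gart/Son, which joins a purine synthesis enzyme to a splicing factor, followed at 93.4 and 97.9.

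Lower values were found at other textbook pairs. Toe1/Mutyh, the latter a DNA glycosylase of base excision repair, stood at 91.7 and 95.6, and Mrps12/Sars2, 2 genes of mitochondrial translation, at 88.8 and 93.9. Wrap53/Trp53, the latter the gene of the tumour suppressor p53, stood at 88.7 and 92.3 with signals of 6.10 and 8.30. Tsc2/Nthl1, with start sites 50 bases apart, was the weakest open textbook pair at 75.2 and 81.4. Col4a4/Col4a3, which encode collagen chains of basement membranes such as that of the kidney glomerulus, had no peak in either library.

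The 2 libraries ranked the pairs alike. Over the 698 pairs open in both, the Spearman correlation of the percentiles was 0.942, given as a description, since both libraries share the same promoters and base composition. The median absolute difference was 2.39 percentile points, and 5 pairs differed by more than 20 points. The percentile was higher in replicate 2 at 586 pairs and in replicate 1 at 112, but the peak list of replicate 2 is longer, which by itself raises the percentile of a given rank. Among the strongest 42454 peaks of each library, a comparison added after seeing the data, 322 pairs stood higher in replicate 2 and 372 in replicate 1, with medians of 91.4 and 91.5, a median absolute difference of 1.73 points and 0 of 694 pairs differing by more than 20. The strongest peaks of the 2 libraries overlapped at 680 of the 698 pairs.

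**Figure D1:**
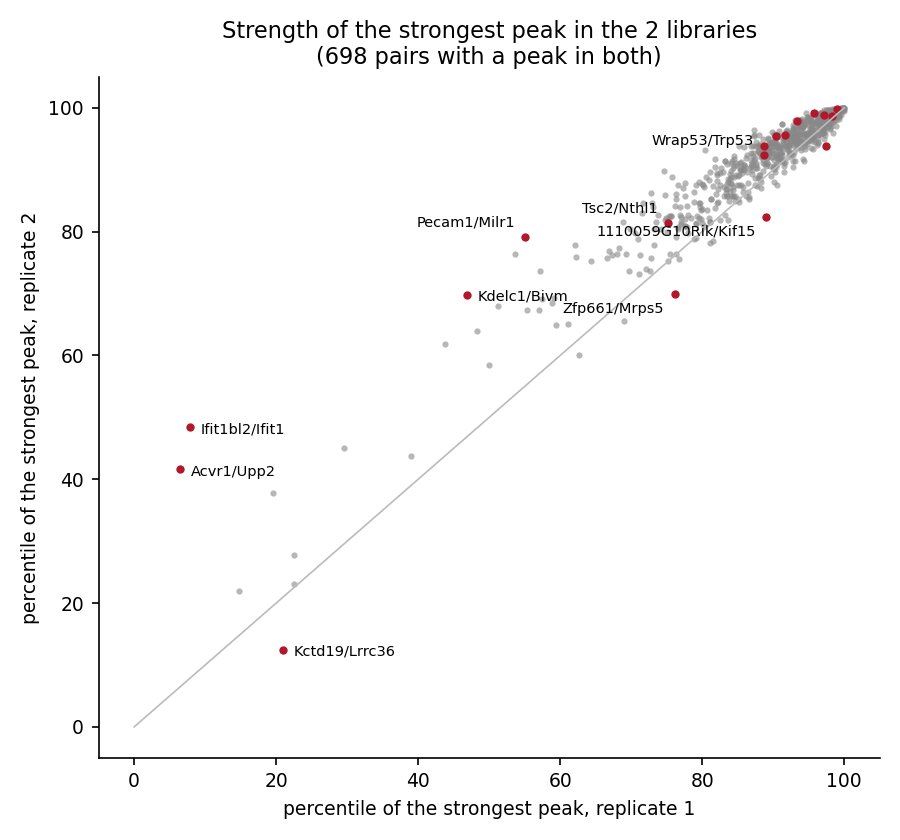
Percentile of the strongest peak at each of the 698 pairs open in both libraries, replicate 1 on the horizontal axis and replicate 2 on the vertical axis, with the line of equal values, each within its own list of 42454 or 60683 peaks. Red points are textbook pairs and the pairs with the largest differences, some of them named. Most points crowd above percentile 80 and a little above the line, where the longer list of replicate 2 puts them, and Ifit1bl2/Ifit1 and Acvr1/Upp2 lie farthest above it.

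The pairs with the largest differences were chosen by percentiles in lists of unequal length, so each value in replicate 2 is followed by that among its strongest 42454 peaks. Ifit1bl2/Ifit1, genes induced by interferon, stood at percentile 7.83 in replicate 1 and 48.5 in replicate 2, or 26.4 at equal length. Acvr1/Upp2 stood at 6.502 and 41.6, or 16.5. Pecam1 encodes an adhesion molecule of endothelium, platelets and leukocytes and Milr1 a receptor of mast cells, and their pair stood at 55.1 and 79.2, or 70.3. Kdelc1/Bivm stood at 46.9 and 69.8, or 56.9.

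In the other direction 1110059G10Rik/Kif15 stood at 89.0 in replicate 1 and 82.4 in replicate 2, or 74.9 at equal length. Zfp661/Mrps5 stood at 76.1 and 69.9, or 56.95, and Pqlc2/Akr7a5 at 97.4 and 93.8, or 91.1. Kctd19/Lrrc36 had signals of 0.781 and 0.523 and no peak among the strongest 42454 of replicate 2. With 1 value per library, none of these differences can be told from the spread between libraries.

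Start sites of divergent pairs were open more often than single coding start sites of like CpG content. Among CpG-rich start sites, of which the pairs held 1250, 96.7% (95.6 to 97.6) were open in replicate 1 and 97.4% (96.4 to 98.2) in replicate 2. Of 7410 CpG-rich start sites that were single, with no other coding start site and no divergent noncoding gene within 1 kb, 79.6% (78.6 to 80.5) and 82.7% (81.8 to 83.5) were open. The difference was 17.15 and 14.75 percentage points, a mean of 15.95 ± 1.70 (SD, n = 2). A divergent noncoding partner went with intermediate shares, 84.7% (81.3 to 87.6) and 87.8% (84.7 to 90.4) of 510 start sites. The 913 CpG-rich start sites left, which had another coding start site within 1 kb in another arrangement, such as overlapping 5′ ends, lay nearer to the pairs, with 91.4% (89.4 to 93.0) and 93.4% (91.6 to 94.9) open and median percentiles of 89.4 and 91.8. The 2 start sites of a pair often share a peak and are not independent, so that the 1360 open paired start sites of replicate 1 had 704 different strongest peaks and the 1377 of replicate 2 had 714.

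Paired start sites were also open more often than single ones at lower CpG content. At a CpG ratio of 0.4 to 0.6, 83.4% and 84.7% of 163 paired start sites were open, against 64.2% and 65.7% of 67 with a noncoding partner and 47.2% and 52.9% of 2674 single ones. At a ratio of 0.2 to 0.4 the shares of paired and single start sites were 11 and 16 of 44 against 14.0% and 18.4% of 3586, while start sites in another arrangement were open in 34 and 43 of 113 cases, a higher share than of the pairs. In CpG-poor stretches as a whole, 63.7% and 67.1% of 237 paired start sites were open, against 17.6% and 21.3% of 11093 single ones. These shares are not matched for CpG content within that range, where paired start sites had a median ratio of 0.502 and single ones of 0.227.

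Open paired start sites also had the stronger peaks. At CpG-rich start sites the median percentile of the strongest peak was 92.2 in replicate 1 and 94.4 in replicate 2 for pairs, 89.7 and 92.3 with a noncoding partner, and 86.7 and 89.5 for single genes. The difference between paired and single start sites was 5.49 and 4.86 percentile points, a mean of 5.18 ± 0.44 (SD, n = 2). Peaks in the strongest 10% of the library were found at 60.6% and 72.0% of open CpG-rich paired start sites and at 39.7% and 48.2% of open single ones.

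**Figure D2:**
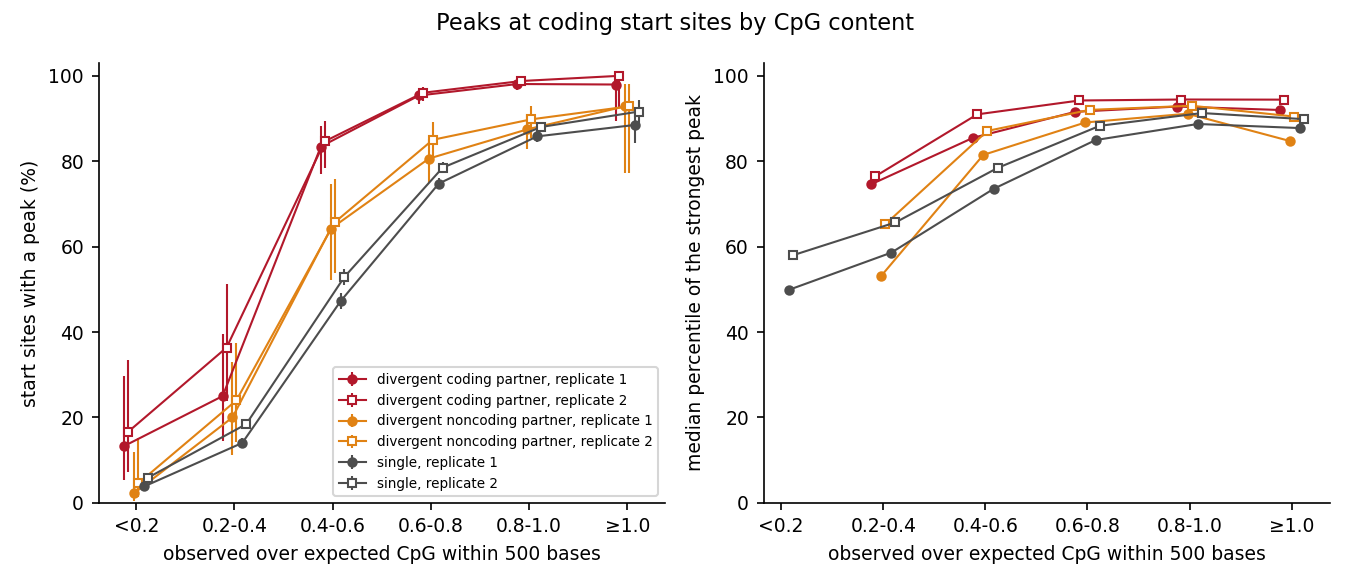
Share of coding start sites with a peak (left, with 95% Wilson intervals) and median percentile of the strongest peak at open start sites (right, at least 10 open start sites) by observed over expected CpG within 500 bases, for start sites with a divergent coding partner, with a divergent noncoding partner and single ones. Filled circles are replicate 1 and open squares replicate 2. The red curves lie above the grey ones in every bin of the left panel, most clearly at 0.4 to 0.6, with 83.4% and 84.7% against 47.2% and 52.9%.

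Most strong peaks lay between the start sites. The midpoint of the strongest peak fell between them at 475 of 698 open pairs in replicate 1, or 68.1%, and at 473 of 705 in replicate 2, or 67.1%, a mean of 67.6% ± 0.68 (SD, n = 2). It was as often nearer to the gene on the minus strand as to the other, at 363 and 364 of the 698 pairs open in both, and at 617 of these it was nearer to the same start site in both libraries. Seen from a CpG-rich start site, the midpoint was upstream at 83.5% and 82.9% of open paired start sites and at 68.0% and 68.0% of open single ones, with medians of 53.5 and 53.5 bases upstream for paired start sites and 27.5 and 28.0 for single ones. Open start sites with a divergent noncoding partner lay nearer to the paired ones, with 79.6% and 79.0% upstream and medians of 45.5 and 45.5 bases upstream.

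How 1 peak serves 2 start sites depended on the distance between them. At pairs with 1 to 100 bases between the start sites the strongest peak covered both at 88.2% of open pairs in replicate 1 and 86.6% in replicate 2. At over 100 and up to 200 bases it did so at 57.2% and 53.4%, at up to 300 bases at 25.8% and 25.5%, and at up to 500 bases at 9.52% and 4.69%. Beyond 500 bases it did so at 0 of 58 and 0 of 60. The median width of the strongest peaks was 220 bases over all open pairs and 200 to 240 bases in these classes. A peak cannot cover 2 start sites that lie farther apart than its own width.

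More separate peaks were found where the start sites lay farther apart, but the stretch searched lengthens with that distance. The shares below are not matched for its length. At least 2 peaks were called at 25.6% and 31.5% of open pairs with 1 to 100 bases, at 42.3% and 43.4% with over 100 and up to 200 bases, and at 67.2% and 66.7% beyond 500 bases. Over all open pairs these were 269, or 38.5%, and 303, or 43.0%. The second peak had a median percentile of 70.6 and 73.6, and its midpoint lay a median of 430 and 460 bases from that of the first. The most peaks were found at Cbx5/Hnrnpa1, with 4 and 4. This pair of genes, for the heterochromatin protein HP1 alpha and for an RNA-binding protein of splicing, has start sites 616 bases apart on chromosome 15 and stood at percentiles 94.8 and 98.1. Fiz1/Gm44973 also had 4 and 4 peaks, Atp6v1a/Naa50 had 4 and 3, and Fig4/Ak9 had 3 and 4.

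**Figure D3:**
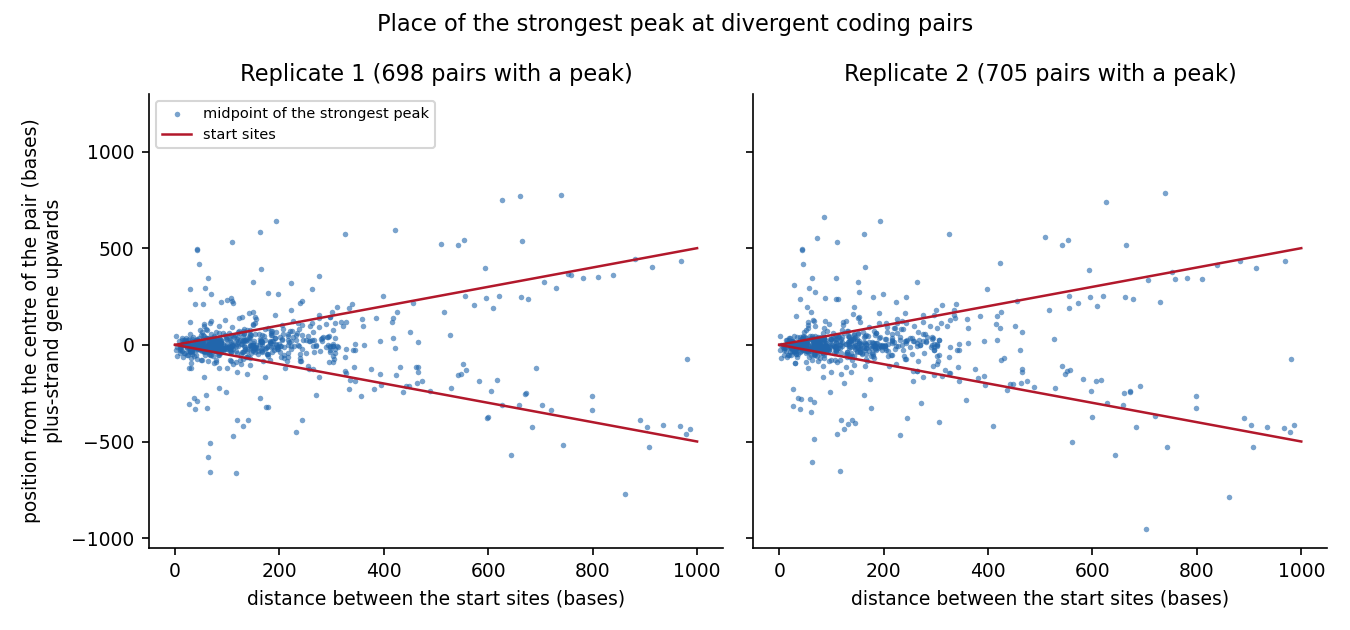
Position of the midpoint of the strongest peak relative to the centre between the start sites, against the distance between the start sites, for each open pair, with replicate 1 on the left and replicate 2 on the right. Red lines mark the start sites. Up to about 300 bases the points crowd around the centre, and beyond 500 bases most lie near one of the start sites.

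The cut rate track, in which the authors give a false discovery rate (FDR) for runs of bases, showed the open region as continuous. At pairs with 1 to 100 bases between the start sites, every base from one start site to the other had an FDR of at most 0.001 at 98.99% of open pairs in both libraries. At over 300 and up to 500 bases this held at 93.7% of 63 and 93.8% of 64, a distance at which a single peak rarely reached both start sites. Beyond 500 bases it held at 32.8% of 58 and 33.3% of 60, and there the bases between the start sites were covered to a mean of 64.7% and 66.3%.

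Around an open CpG-rich start site of a pair, the accessible DNA reached farther upstream than at a single gene. Of the 1000 bases upstream, a mean of 526 in replicate 1 and 551 in replicate 2 had an FDR of at most 0.001, against 329 and 342 at single start sites and 427 and 445 with a noncoding partner. The difference between paired and single start sites was 197 and 209 bases, a mean of 203 ± 8.77 (SD, n = 2). Downstream the order was turned, with 390 and 419 bases at paired, 448 and 481 at single and 448 and 488 at start sites with a noncoding partner. At 500 bases upstream 46.0% and 50.8% of paired and 16.6% and 18.4% of single start sites were accessible, and at 500 bases downstream 24.8% and 28.6% against 38.7% and 43.9%. The upstream side of a paired start site holds the partner gene, so that its upstream profile is in part the downstream profile of the partner.

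**Figure D4:**
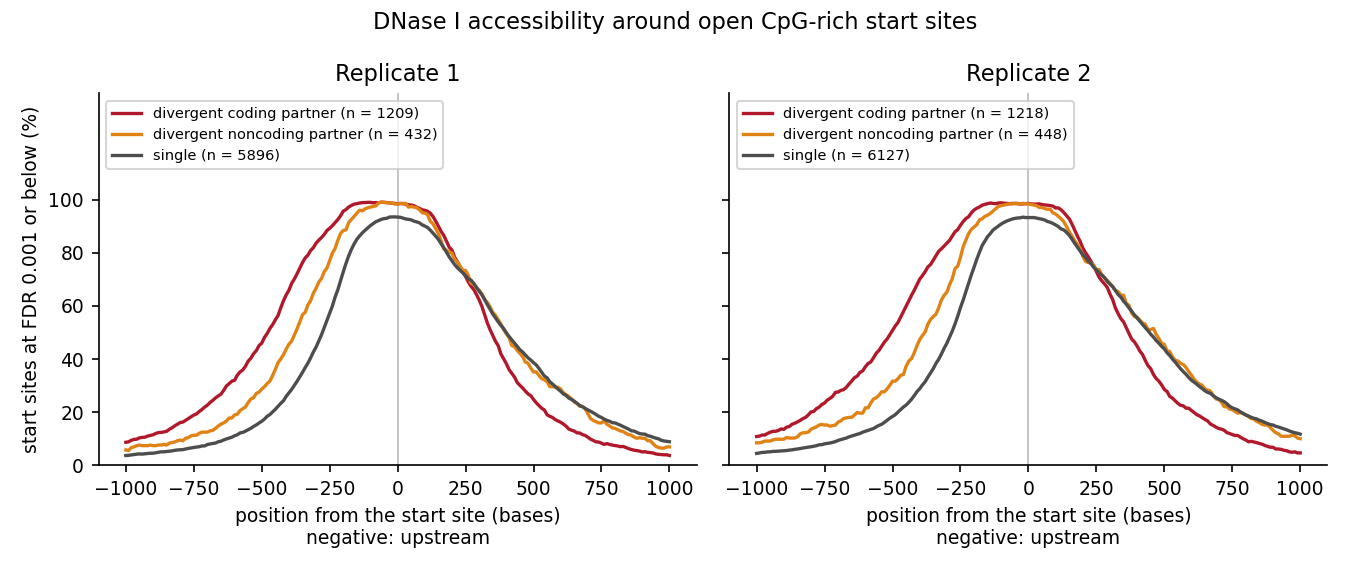
Share of open CpG-rich coding start sites at which the base at a given position had an FDR of at most 0.001, from 1000 bases upstream (negative) to 1000 bases downstream, for start sites with a divergent coding partner, with a divergent noncoding partner and single ones, replicate 1 on the left and replicate 2 on the right. The red curve is shifted upstream of the grey one, with 46.0% against 16.6% at 500 bases upstream in replicate 1, and lies below it at 500 bases downstream.

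Most peaks at pairs held footprints. The peaks held 3647 footprints in replicate 1 and 3800 in replicate 2, or 1.545 and 1.612 per 100 bases, a mean of 1.58 ± 0.047 (SD, n = 2), and 13.8% and 11.7% of the peaks held none. The strongest peaks at paired start sites held 1.89 and 1.92 footprints per 100 bases, against 1.66 and 1.78 at single start sites. At percentiles 95 to 100 these values were 2.04 and 1.91 against 1.96 and 1.87, and at percentiles 75 to 90 they were 1.85 and 2.03 against 1.82 and 1.94. In these strength classes paired and single start sites differed by less than the libraries did, but at percentiles 90 to 95 the values were 1.98 and 1.94 against 1.91 and 1.90, where the difference exceeded that between the libraries in replicate 1. At percentiles 50 to 75 pairs had the lower values, 1.377 and 1.555 against 1.44 and 1.651, and up to 50 the higher, 1.066 and 1.436 against 0.935 and 1.304. Peaks up to percentile 50 made up 2.56% and 3.08% at paired and 15.65% and 15.76% at single start sites.

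Motifs were counted in windows that reach 100 bases to either side of the midpoint of the strongest peak, searched on both strands, with N standing for any base. The letters GCGCANGCG of NRF1, a factor of nuclear genes for mitochondria, were found at 21.5% (18.6 to 24.8) of strongest peaks at pairs in replicate 1 and 20.9% (143 of 685) in replicate 2, against 14.0% (13.3 to 14.8) and 13.1% (12.4 to 13.9) at single start sites. The ETS letters CCGGAAGT were found at 11.8% (9.58 to 14.5) and 11.7% (9.49 to 14.3) against 7.76% (7.19 to 8.38) and 7.27% (6.74 to 7.84). The NF-Y letters CCAATNNG were found at 23.3% (20.3 to 26.6) and 23.1% (20.1 to 26.4) against 17.6% (16.7 to 18.4) and 17.2% (16.4 to 18.04). Start sites with a divergent noncoding partner had 15.8% and 15.0% for NRF1, 10.5% and 10.9% for ETS, and 21.2% and 20.95% for NF-Y. For each of these motifs the intervals of that class overlapped those of pairs in both libraries. With CpG-rich start sites alone the single ones reached 16.6% and 16.1% for NRF1, 8.90% and 8.62% for ETS and 17.9% and 18.1% for NF-Y, and the pairs 23.0% and 22.2%, 11.7% and 11.8%, and 23.9% and 24.1%. The ETS intervals then overlapped in replicate 1, with 9.35 to 14.5 at pairs and 8.20 to 9.66 at single start sites. In that comparison peaks at pairs had the lower G+C content, with a median of 64.6% and 64.4% in the window against 67.5% and 67.5%. The CpG ratio of the window was higher at pairs, at 0.917 and 0.912 against 0.890 and 0.882. Over all start sites it was 0.892 and 0.888 against 0.807 and 0.783. The NRF1 and ETS letters hold CpG themselves, and whether composition accounts for their shares was not tested.

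Among the other motifs, the YY1 letters AAGATGGCG were also more frequent at pairs, at 4.72% (3.36 to 6.59) and 4.53% (3.21 to 6.35) against 2.82% (2.47 to 3.21) and 2.65% (2.33 to 3.02). With CpG-rich start sites alone these were 4.67% and 4.48% against 3.17% and 3.10%, with intervals that overlapped. The CREB and ATF letters TGACGTCA, at 4.87% and 4.67% against 3.84% and 3.63%, and the ZBTB33 letters CTCGCGAG, at 2.95% and 2.77% against 1.78% and 1.59%, were higher in both libraries, with intervals that overlapped. The SP and KLF letters GGGGCGGGG stood at 21.1% and 19.6% of strongest peaks at pairs and at 22.4% and 21.4% at single start sites. With CpG-rich start sites alone they stood at 21.9% and 20.4% against 25.3% and 24.6%, with intervals that overlapped. CTCF letters, CCACNAGG, were found at 3.10% and 3.07% against 4.46% and 4.37%, and TATAAA at 3.10% and 2.63% against 2.43% and 2.71%, higher at pairs in replicate 1 alone. With CpG-rich start sites alone TATAAA was higher at pairs in both libraries, at 3.005% and 2.65% against 2.12% and 2.30%, with intervals that overlapped. Motifs of blood cell factors were rare at pairs and more frequent in peaks away from coding promoters, where the windows differ in composition. Windows there had a G+C content of 52.95% and 52.5% and a CpG ratio of 0.342 and 0.309. At pairs these were 64.2% and 64.0%, and 0.892 and 0.888. TATAAA was also more frequent away from promoters, at 5.70% and 5.59%. The RUNX letters TGTGGTT stood at 1.03% and 0.73% of strongest peaks at pairs, 2.33% and 2.42% at single start sites and 7.86% and 8.49% away from promoters. The PU.1 letters GAGGAAGT stood at 1.77% and 2.04%, 2.71% and 2.96%, and 6.55% and 7.55%. With CpG-rich start sites alone the PU.1 order turned, with 2.00% and 2.32% at pairs against 1.92% and 1.91% at single start sites. The octamer letters ATGCAAAT stood at 1.18% and 0.876% at pairs, 1.11% and 1.16% at single start sites and 2.27% and 2.37% away from promoters. For the AP-1 letters TGANTCA these were 2.21% and 2.48%, 2.19% and 2.53%, and 6.22% and 7.08%. A match is a description of the letters and no measure of binding.

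The motifs differed in how often their matches overlapped a footprint. In the strongest peaks at pairs, 32.7% of all bases in replicate 1 and 38.4% in replicate 2 lay in footprints. That share is no baseline for matches, since a match of 8 letters or more can overlap a footprint more easily than 1 base can lie in it. How often stretches of that length overlap one by placement alone was not tested. Of the matches to the cyclic AMP response element TGACGTCA, bound by CREB and ATF factors, 33 of 35 and 35 of 35 overlapped a footprint, and of the NRF1 matches 89.3% of 233 and 91.6% of 238 did so. SP and KLF matches did so in 187 of 213 and 90.55% of cases and ETS matches in 61 of 99 and 71 of 98. NF-Y matches overlapped one in 35.8% of 240 and 40.3% of 238 cases, a lower share than for the motifs above.

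The motifs also differed in their place. In the same peaks, 44.2% and 45.5% of bases lay between the start sites. NF-Y matches lay there in 68.3% and 71.0% of cases and SP and KLF matches in 62.9% and 62.2%, while NRF1 matches did so in 46.4% and 47.5%. Matches to the YY1 letters, a motif known to stand just downstream of start sites, lay between them in 4 of 47 and 5 of 40 cases. Pairs with an NF-Y match between the start sites had a median percentile of 93.4 and 96.1 for their strongest peak, against 91.0 and 93.7 for pairs without one, but also the longer gaps, with a median distance of 211 against 99 bases.

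Genes of several housekeeping functions were paired more often than the 6.78% of all coding genes, and their pairs were open about as often as all pairs. The gene lists were chosen with results of these libraries known, and their counts stand beside 92.6% and 93.5% of all pairs open. The strongest and weakest pair of a list are those by the mean percentile of both libraries. Of 131 genes of DNA replication and repair 40 were paired, or 30.5%, and 40 of their 41 pairs were open in each library with a median percentile of 91.9 and 94.7. The exception was Pinlyp/Xrcc1, the latter a scaffold of single-strand break repair. The weakest open pair was Rad54l/Pomgnt1 at 70.5 and 79.7, where Rad54l is a helicase of homologous recombination. All 22 pairs with a cell cycle gene were open, led by Cenpp/Nol8 at 99.1 and 98.8. Single start sites of the replication and repair list were open in 61 of 67 cases in each library. Those of the cell cycle list were open in 99 and 100 of 120.

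Pairs with mitochondrial genes were open in each case, a share near that of all pairs. All 18 pairs with a gene of the mitochondrial ribosome had a peak in both libraries, from Mrps18b/Ppp1r10 at 98.3 and 99.8 to Eme2/Mrps34 at 57.0 and 67.3. So did all 26 pairs with a gene of the respiratory chain or ATP synthase, from Uqcrq/Gdf9 at 98.8 and 99.5, which joins a subunit of complex III to an oocyte growth factor, to Ndufa1/Rnf113a1 at 76.3 and 76.3. All 7 pairs with an import or chaperone gene and all 6 with an aminoacyl-tRNA synthetase were open. Of 29 pairs with a gene of RNA polymerases or splicing 28 were open, with the highest median of the larger lists at 95.7 and 95.9, and all 8 with a proteasome gene were open. Of 15 pairs with a gene of the cytosolic ribosome or of translation factors 14 were open, from Med22/Rpl7a at 99.3 and 98.6 to Zwilch/Rpl4 at 69.0 and 65.5. In each library, single start sites were open in 39 of 42 cases for the mitochondrial ribosome and 56 of 67 for the respiratory chain. They were open in 81 of 90 for RNA polymerases and splicing, 29 of 34 for the proteasome and 104 of 115 for the cytosolic ribosome list. For import and chaperones these were 26 and 27 of 30, and for aminoacyl-tRNA synthetases 23 of 25.

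Replication-dependent histone genes were the most often paired, with 27 of 67 genes, or 40.3%, in 14 pairs. Of these 11 were open in each library, at a median percentile of 78.9 and 87.5, below that of all open pairs, although their CpG ratio of 0.867 was above the median of 0.761. The highest mean of both libraries was that of Hist1h2bf/Hist1h2ad, a pair of genes for histones H2B and H2A, at 87.6 and 93.8, although Hist2h2ac/Hist2h2be, named after its values were seen, stood higher in replicate 1 at 88.1. No histone pair in replicate 1 and 2 pairs in replicate 2 stood in the strongest 10%. Single start sites of the histone list were open in 33 and 35 of 36 cases.

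Genes of lymphocytes were seldom paired. Of 71 lymphocyte genes 2 were in a divergent pair, or 2.82%, against 6.78% of all coding genes. Single start sites of the lymphocyte list were open in 53 and 56 of 64 cases. Of the genes with Cd symbols, most of them leukocyte surface antigens, 3 were paired, Cd8b1, Cd274 and Cd3eap, of which the last encodes a subunit of RNA polymerase I and no surface antigen. Single start sites with Cd symbols were open in 40 and 53 of 93 cases. Plgrkt/Cd274, the latter the gene of the checkpoint ligand PD-L1, had signals of 5.52 and 8.64 at percentiles 86.8 and 92.8. Fam3a/Ikbkg, the latter the regulatory subunit of the kinase that activates NF-kappa B, stood at 79.5 and 88.1, and Lrrc63/Lcp1, the latter the actin-bundling protein of leukocytes, at 76.7 and 75.7. Smyd1/Cd8b1, which joins a muscle methyltransferase to a chain of the T cell coreceptor CD8, had no peak in replicate 1 and a weak one at percentile 14.7 in replicate 2. Psme2/Rnf31, which joins a subunit of a proteasome activator to a ubiquitin ligase of NF-kappa B signalling, stood at 90.6 and 95.3.

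A list of symbols used for genes of sperm, testis and cilia held 32 pairs, of which 27 and 28 were open. It mixes unlike genes, since 20 of its pairs were listed through a coiled-coil symbol (Ccdc), many of them not particular to those tissues, and all 20 were open. Of the other 12, counted apart after the values were seen, 7 and 8 were open, with median percentiles of 87.8 and 87.7 for those open. No peak was found at Aspa/Spata22 and Dgcr2/Tssk2, the latter a kinase of the testis. The strongest pair of the list, Ccdc151/Prkcsh, joins a gene of motile cilia to a subunit of glucosidase II of the endoplasmic reticulum and stood at 97.9 and 99.6. Both pairs of the list of neuronal channels and synapses were open. Tmem126b/Dlg2, which joins an assembly factor of complex I to a synaptic scaffold, had signals of 13.1 and 21.9, and Nlgn2/Tmem256 stood at percentiles 84.5 and 91.8. Single start sites of the neuronal list were open in 28 and 41 of 165 cases, against 7846 and 8488 of all 18503 single start sites. Those of the list of sperm, testis and cilia symbols were open in 107 and 114 of 215. Of 18 pairs with a zinc finger gene of the Zfp series 16 were open in each library, at a median percentile of 90.7 and 94.1. Single start sites of the Zfp series were open in 238 and 243 of 333 cases. Both pairs of the list for antigen presentation and interferon response were open, the only pair of the purine and pyrimidine list, Gart/Son, was open, and the only pair of the collagen list, Col4a4/Col4a3, was not. Peaks at a shared start region do not tell which of the 2 genes is transcribed.

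**Figure D5:**
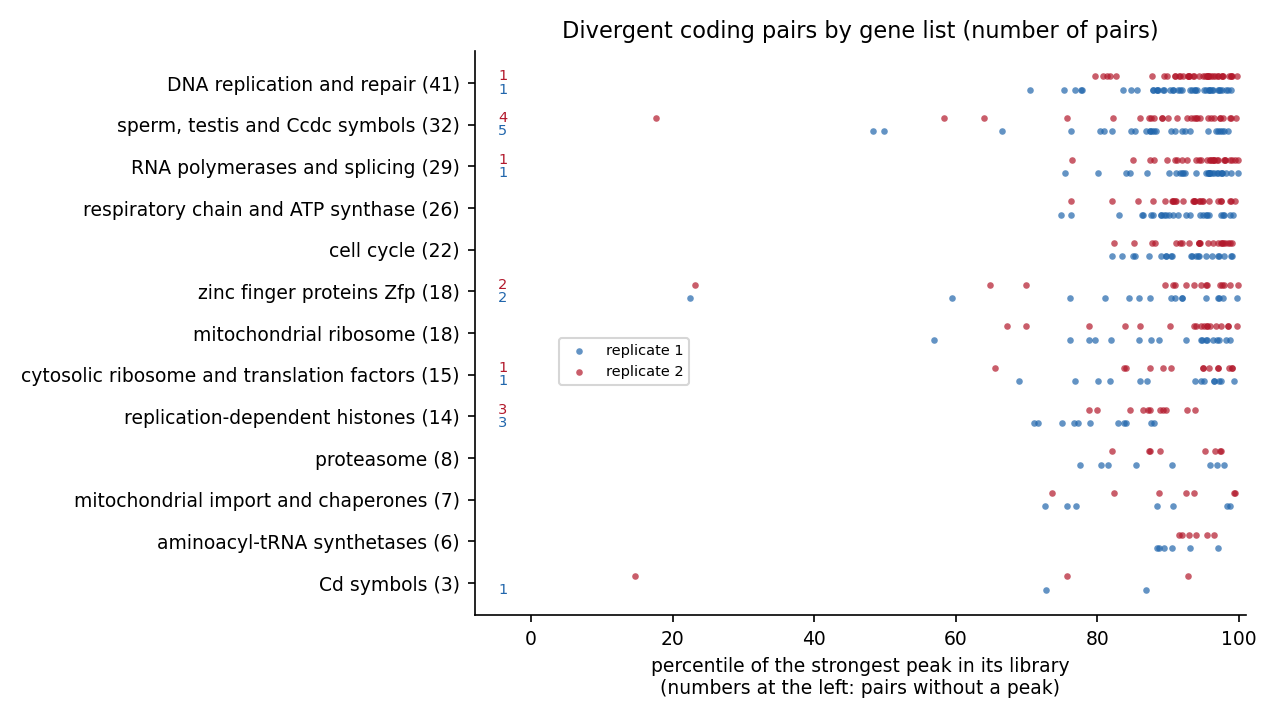
Percentile of the strongest peak at each divergent pair that holds a gene of a list, for lists with at least 3 pairs, in replicate 1 (blue) and replicate 2 (red), with the number of pairs in brackets and, at the left, the number of pairs without a peak. Most points lie above percentile 70, and the histone pairs in replicate 1 all lie below 90.

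The 49 pairs without a peak in either library were mostly CpG-poor. Their median CpG ratio was 0.432 and 13 of them were CpG-rich, against a median of 0.772 and 618 CpG-rich pairs among the 698 open in both. No base between their start sites reached an FDR of 0.001 in either library, but that track comes from the same alignments as the peaks and is no separate evidence. The X chromosome held 7 of them, so that 13 of its 20 pairs were open in each library, while all pairs of chromosomes 3, 8 and 12 were open. Another annotated start site of one of the genes, outside the stretch, was open in both libraries at 16 of the 49 pairs. Among these were Slc27a5/Trim28, Pinlyp/Xrcc1 and Rnf151/Rps2, named after their values were seen, whose nearest open start site of Trim28, Xrcc1 or Rps2 lay 25038, 861 and 1947 bases away.

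The CpG-rich pairs among them include genes of other tissues and histone genes. The 8 with the highest CpG ratio were Hist1h2bq/Hist1h2ao, Hist1h2ap/Hist1h2br, Sobp/9030612E09Rik, Ppp1r3d/Fam217b, Nr2e1/Ostm1, Ddx25/Pus3, Hist1h2ba/Hist1h2aa and Sgce/Peg10, with ratios from 0.923 down to 0.698. Nr2e1 encodes a nuclear receptor of neural stem cells, and Hist1h2ba and Hist1h2aa encode histones of the testis. At Ddx25/Pus3 and Nr2e1/Ostm1 another start site of Pus3 or Ostm1 was open, 865 and 95094 bases away. The stretches of Hist1h2bq/Hist1h2ao and Hist1h2ap/Hist1h2br each aligned to 1 other place in the genome at 98% identity or more over at least 80% of their length, which none of the 698 pairs open in both libraries did. Whether reads from such copies could be placed is not given in the sources used here.

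Sgce and Peg10 form an imprinted pair, of which mammals use mainly the paternal copy. It had no peak in the shorter list of either library, as had Peg3/Usp29, a second imprinted pair with a CpG ratio of 0.602, named after its values were seen. The other 4 CpG-rich pairs without a peak, also named after their values were seen, were Gm10447/Shroom1, Smc1b/Ribc2, Nup62cl/Pih1h3b and Ptchd1/Gm15155.

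Pairs near the limits of the definition were compared without a test. Of 11 pairs with over 900 bases between the start sites 9 were open in each library, and of 12 pairs just outside the limit, by up to 100 bases, 9 were open in each. Pairs whose 5′ ends overlap by up to 1000 bases, which the definition leaves out, numbered 457, of which 89.9% and 91.9% were open.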

How the data were processed

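DNase-seq of 2 spleen libraries was used. Per the readme deposited with each library, a shorter and a longer peak list, footprints and a cut rate track were made from its filtered alignments on mm10, without pooling. Peak caller, footprint caller and aligner were not given in the sources used here. Peak signal is the authors' value on a scale of its own in each library, so only percentiles within a list were compared. The deposited footprints carry 1 FDR threshold, a kind of q-value, throughout, and the deposited track lists runs of bases with an FDR (q-value) under 0.05, of which those at or below 0.001 were called accessible.

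Pairs were built from the GENCODE vM21 basic annotation, with the 5′ end of the gene record as start site. This was also the 5′ end of a basic transcript for 18446 of 21938 coding genes, or 84.08%. Base composition, motifs and sequences were read from GRCm38.p6, the same build. Peak positions are midpoints, since the summit column held 1 value throughout. A start site was CpG-rich where observed over expected CpG within 500 bases was at least 0.6. Shares have 95% Wilson intervals. The members and gene lists were chosen with earlier results of these data known. Pairs named are the 10 strongest, the textbook pairs, up to 8 pairs without a peak and with the highest CpG ratio, the 4 largest library differences each way, the highest and lowest pair and up to 2 without a peak of each list, and the 4 with the most peaks. A few of the pairs so chosen are not reported here. The overlap and counting steps were tested on simulated data. Python 3.11.15, numpy 2.4.6, pandas 2.3.3, scipy 1.17.1, pysam 0.24.0, samtools 1.23.1, minimap2 2.31 and matplotlib 3.10.9 were used. The alternatives were other peak lists, flanks, pair definitions, CpG limits, FDR limits and single libraries.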

Additional observations from a re-analysis of the deposited data

Results flagged for a closer look

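The longer deposited peak lists, which the comparisons do not use, held a peak at 11 of the 49 pairs without a peak in either shorter list, 3 of them in replicate 1 and 10 in replicate 2. These pairs were Obsl1/Inha, Col4a4/Col4a3, Sgce/Peg10, Peg3/Usp29, Sox6/1110004F10Rik, Ddx25/Pus3, Sobp/9030612E09Rik, Aspa/Gm49340, Aspa/Spata22, Nup62cl/Pih1h3b and Trpc5/Rtl4. Ddx25/Pus3 and Nup62cl/Pih1h3b had such a peak in both libraries. Sgce/Peg10 had 2 in replicate 2, together with 1 footprint between its start sites in that library. There are no control samples, and why these peaks are missing from the shorter lists was not tested.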

How the results depend on the processing

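Of 89 alternative values, 47 lay within 1 SD of the 2 libraries and 0 changed sign. Only the differences between paired and single start sites could change sign. The 47 include the values of each library alone, which lie within 1 SD of the mean by arithmetic. The other values moved further or were counts of member peaks. Those counts, 1028 in the main setting, moved well beyond their SD of 32.5, to 1396 with transcript start sites, 722.5 without flanks, 787 and 815 in the 2 libraries with a limit of 300 bases, 892 with the stronger part of the list and 971 with at least 50% of a peak inside, all within 1.5 times. With the longer peak list 94.23% of pairs had a peak, at a median percentile of 94.89 and 1.508 footprints per 100 bases, and CpG-rich paired start sites exceeded single ones by 12.26 percentage points in share open and 4.119 percentile points. With the stronger part of the shorter list (the 50% with the highest signal) these values were 91.25%, 85.74, 1.756, 23.27 and 7.299, and 96.9% of member peaks were shared. With the strongest 42454 peaks of each library the 2 differences were 18.01 and 5.697, and the pairs with the higher percentile in replicate 2 fell from 586 to 322, an alternative chosen after seeing the data. Without flanks 89.92% of pairs had a peak, 73.6% of strongest peaks lay between the start sites, 97.93% of peaks were shared, footprints numbered 1.857 per 100 bases and the percentile difference was 4.43. With overlapping 5′ ends added there were 1702 member peaks, 92.24% of pairs with a peak, 52.6% of strongest peaks between the start sites, 1.526 footprints and a difference of 4.233. Transcript start sites gave 66.36% between and 4.706, a limit of 300 bases 65.89%, and leaving out the X chromosome 93.8% of pairs. A CpG limit of 0.75 gave 12.18 and 4.206. Peaks with at least 50% inside the stretch gave 1.654 footprints per 100 bases, and counting footprints that overlap a peak gave 1.727. With every listed base of the track, an alternative chosen after seeing the data, the upstream difference was 221.6 bases. Percentiles were taken anew within each altered list, so those from lists of unlike length are not on the same scale. Beyond that, the cause of these shifts was not tested.

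With each library alone, member peaks ranged from 1005 to 1051, pairs with a peak from 92.57 to 93.5%, the percentile from 91.43 to 93.91, peaks between the start sites from 67.09 to 68.05%, footprints from 1.545 to 1.612, shared peaks from 91.25 to 95.42%, the differences from 14.75 to 17.15 and from 4.863 to 5.492, and the upstream difference from 196.7 to 209.1 bases. No paired analysis was possible because there is 1 group. Read depth is unknown, so a missing peak cannot be told from too few reads.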

Other observations

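Several textbook pairs lie outside the definition because the 5′ ends of their genes overlap. Hspd1/Hspe1, the mitochondrial chaperonin genes, had a strongest peak at percentile 97.28 in replicate 1 and 98.01 in replicate 2. Ppat/Paics, of purine synthesis, stood at 97.87 and 98.53, and Tap1/Psmb9, of antigen presentation, at 98.56 and 98.04. Fen1/Tmem258 stood at 81.77 and 84.55, Dtx3l/Parp9 at 70.81 and 81.17, and Surf1/Surf2 at 68.96 and 74.22. Tk1/Afmid and Col4a1/Col4a2 had no peak in replicate 1 and peaks at percentiles 65.6 and 6.716 in replicate 2.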
